A study of Homo sapiens with 10 samples.

Results

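The comparison described here set MDA-MB-435 cells after 24 h with hepatocyte growth factor (HGF) directly against the same cells after 6 h with HGF, on 4 of the 10 Affymetrix hgu133a arrays of the study. MDA-MB-435 is an established human melanoma line, and the paper does not describe its culture conditions. The members were chosen by their array titles, which gave 2 arrays at 24 h and 2 at 6 h, described in the study as biological duplicates. The other 6 arrays were 2 of untreated cells, 2 after 1 h with HGF, and 2 of cells carrying a transduced integrin beta 4 (ITGB4). They did not enter the difference but served to estimate the spread within groups. Their values also counted in choosing the probe sets to test and the probe set that stands for each gene. Their levels are set beside the 2 times further below. The word Mock also stands in the descriptions of the ITGB4 arrays, and mock-transduced cells were not among the groups. The untreated group carries no time, so a change over time in culture and a change with HGF cannot be told apart.

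HGF is a secreted ligand of the receptor tyrosine kinase MET. Bound MET recruits adaptor proteins and signals through the RAS-ERK and PI3K-AKT pathways, which first switch on immediate-early transcription factors, then the phosphatases and inhibitors that shut the signal off, and later genes for growth, division and migration. Genes of this response therefore differ in their timing, and many are known to be transient. An array measures the RNA level of a population, so a change in transcription, a change in RNA stability and a change in which cells are present give the same value.

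All levels below are the deposited log2 values after robust multi-array averaging (RMA), in which 1 unit is a doubling of signal, and every difference is the 24 h mean minus the 6 h mean. A gene was called where its limma adjusted p over all probe sets kept by the filter on low values was under 0.05, and among several kept probe sets of a gene the one with the highest mean level stands for it. Of the kept probe sets 1981 (19.5%) were called, 706 higher and 1275 lower at 24 h. Of the called probe sets 35.6% were thus higher, and 47.1% after centring each array on its median. In terms of genes, 473 of 6370 (7.43%) were higher and 787 (12.4%) lower. Each list count below is to be read against these shares. The median difference of all genes was -0.0035, that of the genes called higher 0.57 and that of the genes called lower -0.69. Decreases were also the larger changes, since 143 genes were lower and 41 higher by at least 1, and 5 genes were lower and 0 higher by at least 2.

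Single arrays mattered for the number of calls. When an HGF 24 h array was left out, 860 probe sets were called without replicate 1 and 1380 without replicate 2. When an HGF 6 h array was left out, 699 were called without replicate 1 and 454 without replicate 2. The smallest two-sided p that an exact permutation of 2 against 2 arrays allows is 0.333, so all p-values here come from limma, which borrows spread from the other groups and genes. The replicates of each time point did not overlap with those of the other in 4094 of 6370 genes (64.3%), which included each of the 1260 called genes. Array medians of the kept probe sets were 8.48 and 8.57 at 24 h, against 8.59 and 8.59 at 6 h. The ACTB control probe sets for the 3′ and 5′ ends differed by -0.09 and -0.33 at 24 h, against -0.34 and -0.36 at 6 h. Those of GAPDH differed by -0.14 and -0.02 at 24 h, against -0.21 and -0.0061 at 6 h, and the part of RNA quality in the differences was not tested.

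**Figure D1:**
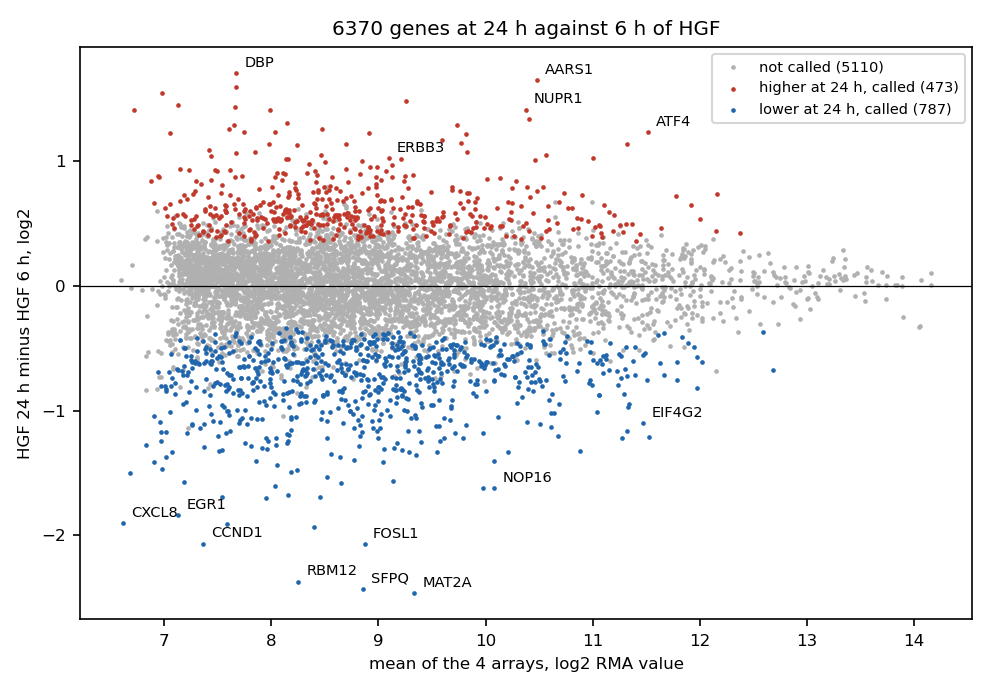
Difference between HGF 24 h and HGF 6 h on the log2 scale (y axis) against the mean of the 4 arrays (x axis, log2 RMA value), 1 point per gene. Red points are the 473 genes called higher at 24 h, blue points the 787 called lower and grey points the 5110 not called, and the decreases reach -2.46 while the increases reach 1.70.

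Melanocyte genes were abundant at both times. All 11 measured markers of the melanocyte lineage passed the filter on low values, with a summed level of 14.57 and 14.43 at 24 h, against 14.53 and 14.35 at 6 h. Of the defining markers of other cells, 1 of 10 epithelial, 2 of 8 fibroblast and 0 of 6 leukocyte genes passed. Of longer lists of such markers, 5 of 23 epithelial genes on the array passed, with ESRP1 and KRT18 called lower, and 4 of 16 fibroblast and 0 of 16 leukocyte genes, with none called. Among 23 tested genes of the melanocyte lineage and pigmentation, 2 were higher at 24 h (8.70%) and 0 lower, with a median of -0.02. The higher share is near the 7.43% over all genes. ERBB3, the neuregulin receptor of this lineage, had 9.53 and 9.69 at 24 h, against 8.70 and 8.47 at 6 h (difference 1.02, SE 0.14, adjusted p = 0.00176). MITF, the lineage's master transcription factor, had 11.01 and 10.63 at 24 h, against 10.47 and 10.26 at 6 h (difference 0.46, SE 0.14, adjusted p = 0.0460). Both were separated between the times, as was every called gene and 64.3% of all genes. The MITF call was lost without HGF 24 h replicate 1 and without either HGF 6 h replicate, with adjusted p of at most 0.284, and it was also lost without the filter on low values, after cyclic loess, and with the spread of the 2 times alone or without the untreated arrays.

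The largest decreases were in genes of several functions. MAT2A, which makes the methyl donor S-adenosylmethionine, had 8.22 and 7.98 at 24 h, against 10.62 and 10.50 at 6 h (difference -2.46, SE 0.32, adjusted p = 0.00137). SFPQ, a splicing factor of nuclear paraspeckles, had 7.45 and 7.82 at 24 h, against 9.92 and 10.21 at 6 h (difference -2.43, SE 0.30, adjusted p = 0.00137, called on 2 of 3 kept probe sets). RBM12, an RNA-binding protein, had 6.97 and 7.17 at 24 h, against 9.46 and 9.42 at 6 h (difference -2.37, SE 0.30, adjusted p = 0.00137). These 3 genes and the AP-1 subunit FOSL1 and cyclin D1 (CCND1) were the 5 that fell by more than 2 log2 units. Next came the pseudouridine synthase PUS7 (-1.93), the protease inhibitor SERPINB8 (-1.91), the chemokine interleukin-8 CXCL8 (-1.90) and the transcription factor EGR1 (-1.84). FRMD4A (-1.70), CEMIP (-1.69), NETO2 (-1.69), LYPD1 (-1.67), the nucleolar protein NOP16 (-1.62) and the antisense RNA SLC67A1-AS (-1.62) completed the 15 largest decreases. In RBM12, CCND1, SERPINB8, CXCL8, EGR1, FRMD4A and CEMIP the 24 h mean lay under 7.31. That is the lowest second-highest value over the 10 arrays among the kept probe sets. Background was not measured, and at such low signal the size of the decrease is not exact.

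The largest increases were smaller than the largest decreases. DBP, a bZIP factor driven by the circadian clock, had 8.40 and 8.65 at 24 h, against 7.21 and 6.43 at 6 h (difference 1.70, SE 0.31, adjusted p = 0.00542). AARS1, the alanyl-tRNA synthetase, had 11.21 and 11.39 at 24 h, against 9.60 and 9.71 at 6 h (difference 1.65, SE 0.18, adjusted p = 0.000961). The ubiquitin ligase adaptor KLHL24 (1.59, called on 1 of 2 kept probe sets), the tankyrase TNKS (1.54), YPEL5 (1.48), the chromatin organizer SATB1 (1.45) and PHF21A (1.43), a subunit of a histone demethylase complex, followed. The others were the stress protein NUPR1 (1.41), ZNF277 (1.41), CCDC28A (1.41), the pseudokinase TRIB3 (1.33), the mTOR inhibitor DEPTOR (1.31), the phosphatase CTDSP2 (1.29), TMEM187 (1.29) and the transcriptional repressor HBP1 (1.26). The 6 h mean was under 7.31 in DBP, KLHL24, TNKS, SATB1, PHF21A, ZNF277, CCDC28A and TMEM187. Of the 30 genes with the largest changes 25 were called whichever of the 4 arrays was left out. EGR1 lost its call whichever array was left out, SLC67A1-AS lost it without HGF 24 h replicate 2 or either HGF 6 h replicate, and DBP and TRIB3 without HGF 6 h replicate 2, with adjusted p between 0.0526 and 0.166. CXCL8 no longer passed the filter without one or other of the HGF 6 h replicates.

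**Figure D2:**
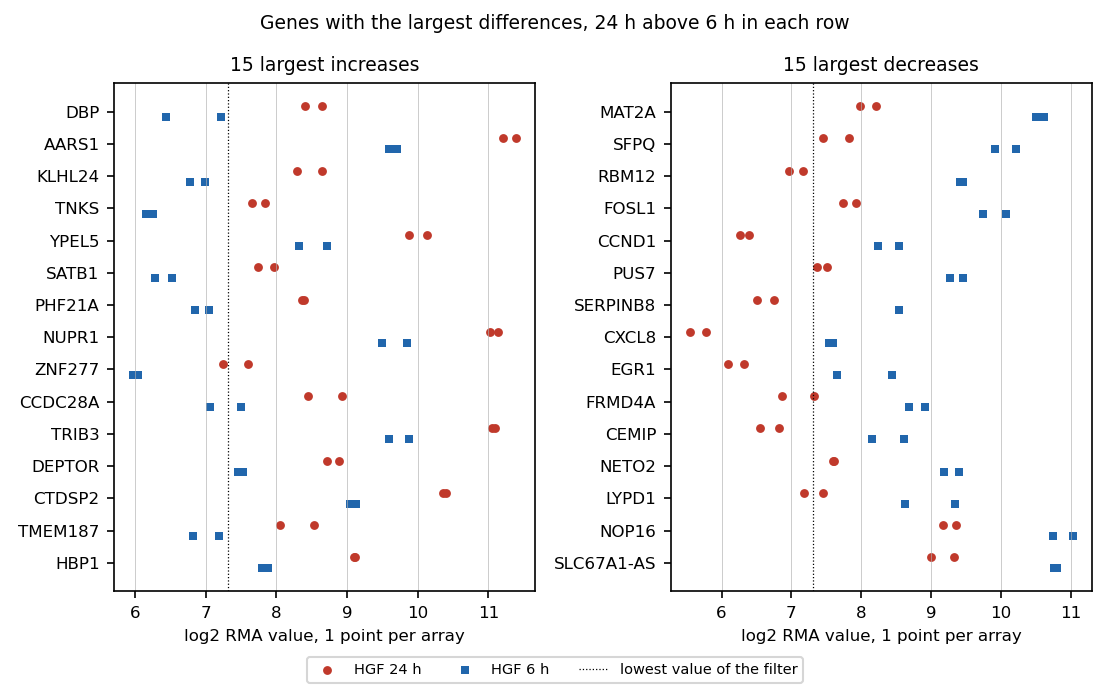
Log2 RMA values of the 15 genes with the largest increases (left panel) and the 15 with the largest decreases (right panel) at 24 h against 6 h, 1 point per array. Red circles are HGF 24 h, blue squares HGF 6 h, and the dotted line is the lowest second-highest value among the kept probe sets (7.31). In each row both circles lie on one side of both squares.

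At the receptor and the first adaptors, 1 of 15 tested genes was called higher (6.67%) and 2 lower (13.3%), close to the 7.43% and 12.4% over all genes. MET had 8.78 and 8.39 at 24 h, against 8.94 and 8.72 at 6 h (difference -0.24, adjusted p = 0.428), which was not called, although 1 of its 3 kept probe sets was called lower. HGF itself did not pass the filter. The GTPase HRAS (-0.85) and the PI3-kinase regulatory subunit PIK3R1 (-0.66, called on 1 of 2 kept probe sets) were lower and the adaptor SHC1 (0.44, called on 1 of 2 kept probe sets) was higher. PIK3R1 and SHC1 lost the call whichever array was left out, and HRAS without HGF 24 h replicate 1 or HGF 6 h replicate 2, with adjusted p of at most 0.219.

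Among the inhibitors that ERK signalling induces, decreases prevailed, with 5 of 14 tested genes lower, 0 higher and a median of -0.34, against 12.4% lower over all genes. Among the 5 are 4 MAP kinase phosphatases. DUSP5, a nuclear phosphatase of ERK, had 6.84 and 7.10 at 24 h, against 7.96 and 8.17 at 6 h (difference -1.09, SE 0.17, adjusted p = 0.00276), with the 24 h mean under 7.31. DUSP4 had 8.19 and 8.67 at 24 h, against 9.21 and 9.54 at 6 h (difference -0.94, SE 0.21, adjusted p = 0.0125). PHLDA1 (-0.94, called on 3 of 4 kept probe sets), DUSP2 (-0.74) and DUSP14 (-0.55) were also lower, and the differences over the list ran between -1.09 and 0.06. Leaving out HGF 24 h replicate 1, HGF 24 h replicate 2, HGF 6 h replicate 1 and HGF 6 h replicate 2 in turn left 2, 5, 3 and 2 genes of the list called.

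The immediate-early and growth factor-induced regulators split in both directions, with 10 of 36 tested genes lower, 5 higher and a median of -0.08. FOSL1, a FOS-family partner of JUN, had 7.75 and 7.93 at 24 h, against 9.74 and 10.07 at 6 h (difference -2.07, SE 0.23, adjusted p = 0.000961). EGR1, a zinc finger factor of the serum response, had 6.10 and 6.33 at 24 h, against 8.44 and 7.66 at 6 h (difference -1.84, SE 0.50, adjusted p = 0.0265), and its 6 h replicates lay further apart than its 24 h replicates. The ETS factor ELK3 (-0.86), the GTPase RHOB (-0.82) and IER2 (-0.73) were lower as well. Higher at 24 h were ATF3 (0.82), MAFF (0.73), the antiproliferative gene BTG1 (0.72), JUND (0.57, called on 1 of 3 kept probe sets) and ETV5 (0.50, called on 1 of 3 kept probe sets). Thus 2 AP-1 genes, FOSL1 and JUND, were called in opposite directions. Calls in this list numbered 8, 10, 7 and 2 when HGF 24 h replicate 1, HGF 24 h replicate 2, HGF 6 h replicate 1 and HGF 6 h replicate 2 were left out.

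In the NF-kB list 3 of 12 tested genes were lower and 1 higher. CXCL8, a neutrophil attractant, had 5.77 and 5.55 at 24 h, against 7.53 and 7.59 at 6 h (difference -1.90, SE 0.21, adjusted p = 0.000961), and both 24 h values lay well under 7.31. Its values outside the 6 h group were all under 7.31, so it passed the filter only through the group in which it was high. TNFAIP3 (A20), a feedback inhibitor of NF-kB, had 8.61 and 8.33 at 24 h, against 9.56 and 9.53 at 6 h (difference -1.08, SE 0.18, adjusted p = 0.00385). The inhibitor NFKBIA (-0.63) was lower and the subunit NFKB2 (0.65) higher. None of the 9 tested secreted growth factors was called by limma, and none had an unadjusted p under 0.05. CCN1 (-0.20, adjusted p = 0.296) and NRG1 (0.20, adjusted p = 0.382) had the largest differences of that list. Of the 22 called genes named in the last 4 paragraphs, FOSL1, IER2, DUSP5, DUSP2 and TNFAIP3 were called whichever array was left out. The number that lost the call was 11 without replicate 1 of 24 h, 7 without replicate 2 of 24 h, 11 without replicate 1 of 6 h and 16 without replicate 2 of 6 h, with adjusted p of at most 0.219.

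Genes that make ribosomes formed the clearest group of decreases. Of 51 tested nucleolar ribosome biogenesis factors 35 (68.6%) were lower and 0 higher at 24 h, with a median difference of -0.64. NOP16 had 9.18 and 9.36 at 24 h, against 10.75 and 11.03 at 6 h (difference -1.62, SE 0.20, adjusted p = 0.00124). UTP14A, a component of the small subunit processome, had 7.24 and 7.64 at 24 h, against 8.92 and 8.93 at 6 h (difference -1.49, SE 0.24, adjusted p = 0.00282). MRTO4, which acts in assembly of the large subunit stalk, had 8.55 and 9.21 at 24 h, against 10.03 and 10.39 at 6 h (difference -1.33, SE 0.20, adjusted p = 0.00249). RRP1B (-1.22, called on 1 of 2 kept probe sets) and WDR43 (-1.17) came next. WDR43 no longer passed the filter without HGF 6 h replicate 1, an array of the group in which it was high. The differences of the 51 genes ran between -1.62 and 0.05, and 0.05 was thus the highest of them. With HGF 24 h replicate 1, HGF 24 h replicate 2, HGF 6 h replicate 1 and HGF 6 h replicate 2 left out in turn, 24, 31, 20 and 17 of them were called lower and 0 higher.

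The polymerases that transcribe ribosomal and transfer RNA genes went the same way in fewer members. Of 24 tested genes 7 were lower (29.2%) and 1 higher (4.17%), against 12.4% and 7.43% over all genes, with a median of -0.28. POLR3G, a subunit of RNA polymerase III, had 7.33 and 7.00 at 24 h, against 8.44 and 8.45 at 6 h (difference -1.28, SE 0.29, adjusted p = 0.0135). POLR3B had 7.26 and 6.92 at 24 h, against 8.06 and 8.12 at 6 h (adjusted p = 0.0110). The 24 h means of POLR3G and POLR3B lay under 7.31, so the sizes of these decreases are not exact. POLR3K (-0.86), the polymerase I factor UBTF (-0.72) and the shared subunit POLR2L (-0.54) were lower, and the TFIIIC subunit GTF3C3 (0.54) was higher. The calls of this list numbered 3, 7, 3 and 1 when HGF 24 h replicate 1, HGF 24 h replicate 2, HGF 6 h replicate 1 and HGF 6 h replicate 2 were left out. In the network of MYC partners the repressors MNT (0.87) and MXI1 (0.74) were higher and the common partner MAX (-0.57, called on 1 of 4 kept probe sets) was lower, among 9 tested genes.

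Translation factors were lower in 10 of 40 tested genes and higher in 0, with a median of -0.15, although 2 were higher after median centring or cyclic loess of the arrays, with a stricter filter or with a trended and robust prior. EIF3J, a subunit of the initiation factor eIF3, had 8.42 and 8.29 at 24 h, against 10.00 and 9.84 at 6 h (difference -1.57, SE 0.27, adjusted p = 0.00444). EIF5, the GTPase activator of the initiation complex, had 10.80 and 10.53 at 24 h, against 11.87 and 11.90 at 6 h (difference -1.22, SE 0.22, adjusted p = 0.00453). DENR (-1.22), EIF4G2 (-1.10) and the cap-binding protein EIF4E (-1.06) were also lower. These 5 were called whichever array was left out, and the list had 7, 14, 7 and 7 decreases without HGF 24 h replicate 1, HGF 24 h replicate 2, HGF 6 h replicate 1 and HGF 6 h replicate 2.

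Structural ribosomal proteins, unlike the factors that assemble them, held no call. By limma 0 of 49 tested cytosolic ribosomal protein genes were called, 1 had an unadjusted p under 0.05, and the differences ran between -0.09 and 0.28 with a median of 0.07. RPL3 (0.28, adjusted p = 0.0973) and RPL12 (0.22, adjusted p = 0.190) had the largest, and both were called with a trended and robust prior. These are among the most abundant mRNAs of a cell, and RPL3, at the upper end of the scale, had 13.49 and 13.47 at 24 h, against 13.21 and 13.19 at 6 h. Of 44 mitochondrial ribosomal protein genes 9 (20.5%) were lower and 0 higher, led by MRPL20 (-0.83) and MRPS17 (-0.75). Without HGF 24 h replicate 1 or HGF 6 h replicate 2 only 2 genes of that list were called, and without HGF 24 h replicate 2 the number was 11.

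Genes of precursor synthesis were called in both directions. Of 18 tested genes of polyamine and methionine metabolism 6 were lower and 3 higher. These counts were not stable, with 2, 3, 1 and 2 lower and 1, 0, 0 and 0 higher when HGF 24 h replicate 1, HGF 24 h replicate 2, HGF 6 h replicate 1 and HGF 6 h replicate 2 were left out, and 1 higher with no filter or with the spread taken without the untreated arrays. Besides MAT2A, the methionine synthase reductase MTRR (-0.73), the salvage enzyme MTAP (-0.72, called on 1 of 2 kept probe sets), AZIN1 (-0.65, called on 1 of 2 kept probe sets) and AMD1 (-0.64) were lower. The polyamine-degrading SAT1 (0.42) was 1 of the 3 genes called higher, and the others are not named here. Differences in the list reached 0.48, so SAT1 did not have the largest increase. MAT2A, AZIN1 and AMD1 all act towards S-adenosylmethionine or polyamine synthesis. In nucleotide synthesis and one-carbon metabolism 3 of 22 tested genes were lower (13.6%) and 2 higher (9.09%), near the 12.4% and 7.43% over all genes. CTPS1, which makes CTP, had 7.62 and 8.15 at 24 h, against 9.15 and 9.32 at 6 h (difference -1.35, SE 0.21, adjusted p = 0.00249), and the pyrimidine enzyme UMPS (-1.06) and the purine enzyme PFAS (-0.72) were lower with it. Of the 30 called genes named for ribosome, translation and precursor synthesis 15 were called whichever array was left out, and 10, 7, 11 and 13 lost the call without HGF 24 h replicate 1, HGF 24 h replicate 2, HGF 6 h replicate 1 and HGF 6 h replicate 2, with adjusted p of at most 0.230.

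RNA processing was another field of decreases. Of 18 tested serine/arginine-rich splicing factors and their kinases 10 (55.6%) were lower and 2 higher, with a median of -0.53. SRSF7 had 10.68 and 10.80 at 24 h, against 11.84 and 11.97 at 6 h (difference -1.16, SE 0.16, adjusted p = 0.00199, called on 2 of 3 kept probe sets). SRSF1 (-0.94), SRSF6 (-0.84), SRSF3 (-0.72) and the kinase SRPK1 (-0.76) were also lower. Against the others, SRSF4 (0.56) and the kinase CLK3 (0.73) were higher. Many of these factors are known to control splicing of their own transcripts, and a probe set that reads one end of a gene does not tell isoforms apart. Calls in this list numbered 6, 4, 4 and 2 without HGF 24 h replicate 1, HGF 24 h replicate 2, HGF 6 h replicate 1 and HGF 6 h replicate 2.

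Heterogeneous nuclear ribonucleoproteins and paraspeckle proteins were lower in 11 of 26 tested genes (42.3%) and higher in 0, with a median of -0.46. RBM14, a paraspeckle component, had 7.71 and 8.02 at 24 h, against 9.38 and 9.51 at 6 h (difference -1.58, SE 0.17, adjusted p = 0.000961). SYNCRIP (hnRNP Q) was lower on all 5 of its kept probe sets, the one that represents it having 8.47 and 8.77 at 24 h, against 9.76 and 10.14 at 6 h (difference -1.33, SE 0.23, adjusted p = 0.00439). HNRNPM (-1.13) and HNRNPAB (-0.97) completed the 5 largest with SFPQ. Nuclear pore and transport genes were lower in 9 of 48 (18.8%) and higher in 0, with the nucleoporins SEH1L (-1.47) and NUP50 (-0.95, called on 2 of 3 kept probe sets), the importins KPNA3 (-1.14) and KPNA4 (-0.87), and the exportin XPO1 (-0.88). The nuclear transport calls numbered 18 without HGF 24 h replicate 2 but 4 when HGF 24 h replicate 1 or HGF 6 h replicate 2 was left out, and those of the ribonucleoproteins 12 and 3 without HGF 24 h replicate 2 and HGF 6 h replicate 2. SFPQ, RBM14, HNRNPAB, SRSF7, SRSF6, SEH1L, KPNA3 and KPNA4 were called whichever array was left out.

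**Figure D3:**
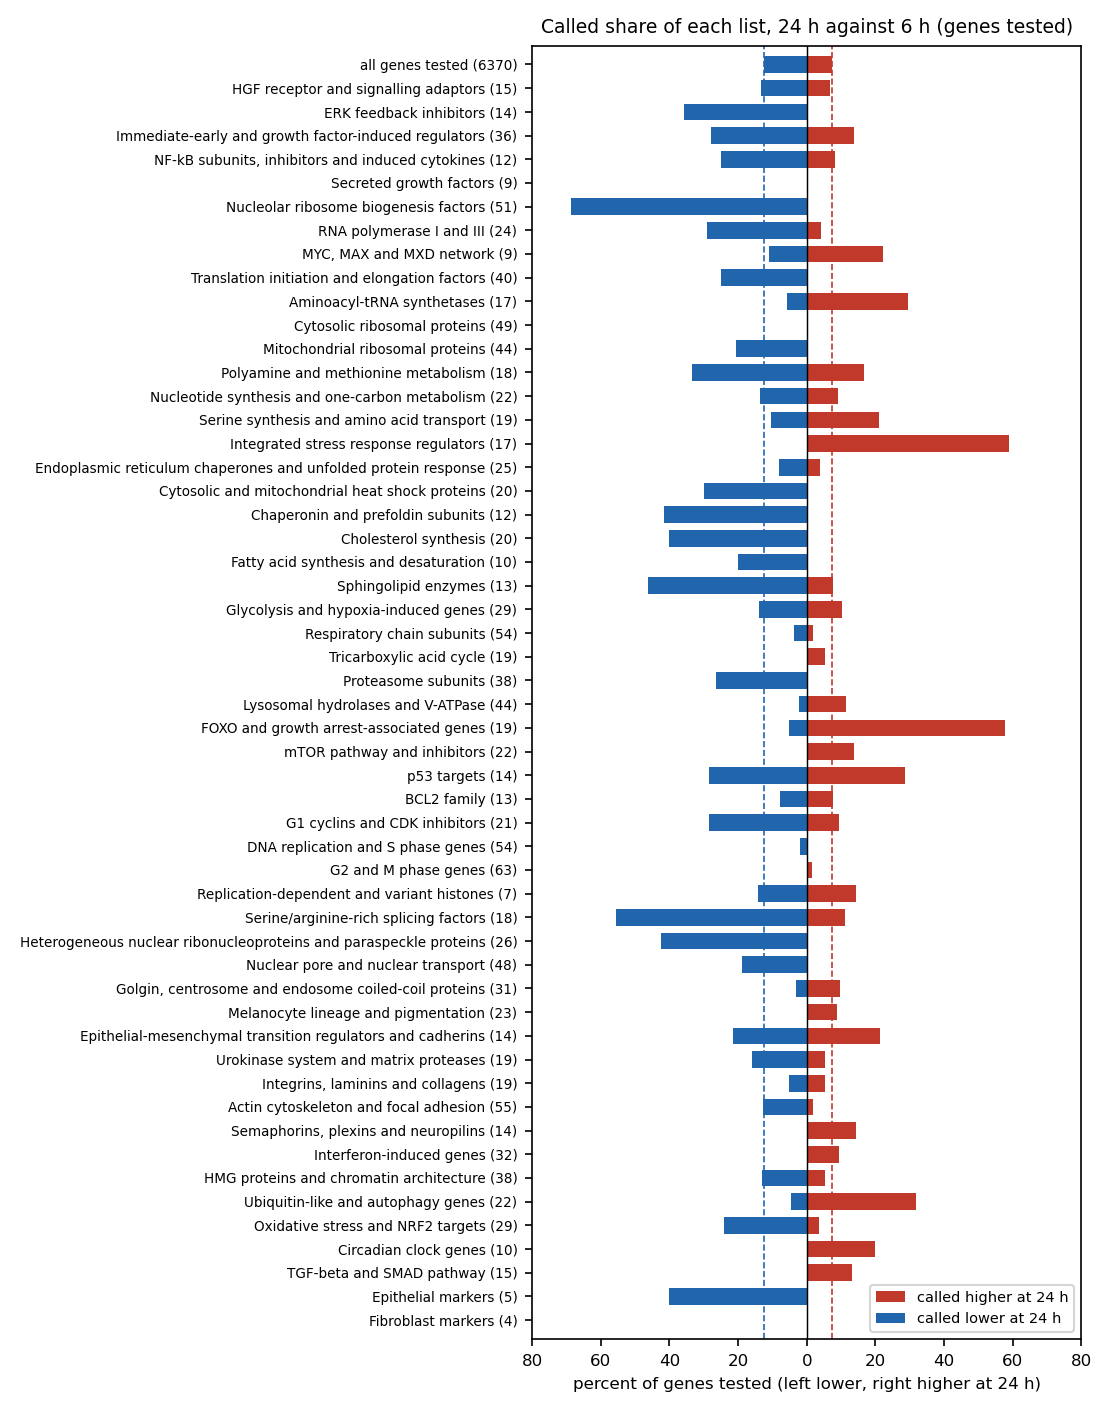
Share of the tested genes of each list called higher (red, to the right) or lower (blue, to the left) at 24 h against 6 h, in percent, with the number of tested genes in brackets. The dashed lines are the shares over all 6370 genes, 7.43% higher and 12.4% lower, and the longest bars are the nucleolar factors on the left (68.6%) and the regulators of the integrated stress response on the right (58.8%).

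The strongest group of increases was the integrated stress response, the programme in which phosphorylated eIF2 favours translation of the factor ATF4, which then switches on genes for amino acid supply, tRNA charging and stress control. Of 17 tested regulators 10 (58.8%) were higher and 0 lower, against 7.43% higher over all genes, and the median difference was 0.65. ATF4 had 12.07 and 12.19 at 24 h, against 10.93 and 10.87 at 6 h (difference 1.23, SE 0.15, adjusted p = 0.00137). NUPR1, a small stress-induced chromatin protein, had 11.14 and 11.02 at 24 h, against 9.85 and 9.49 at 6 h (difference 1.41, SE 0.18, adjusted p = 0.00137). TRIB3 had 11.09 and 11.04 at 24 h, against 9.88 and 9.59 at 6 h (difference 1.33, SE 0.26, adjusted p = 0.00641). HERPUD1 (1.22), of endoplasmic reticulum quality control, and the mTOR inhibitor DDIT4 (1.07) were the next largest. DDIT4 had 10.10 and 10.62 at 24 h, against 9.56 and 9.02 at 6 h, so its replicates lay further apart than those of ATF4. The times did not overlap in any of these 5 genes, which holds for every called gene and for 64.3% of all genes. The list had 9, 7, 9 and 4 increases without HGF 24 h replicate 1, HGF 24 h replicate 2, HGF 6 h replicate 1 and HGF 6 h replicate 2.

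Of the aminoacyl-tRNA synthetases 5 of 17 tested were higher and 1 lower. Beside AARS1 the cysteinyl enzyme CARS1 (0.73), the seryl enzyme SARS1 (0.67), the glycyl enzyme GARS1 (0.64) and the tyrosyl enzyme YARS1 (0.59) were higher, and the histidyl enzyme HARS1 (-0.58) was lower. The median of the list was 0.09, so AARS1 stood far above the rest. Without HGF 6 h replicate 2 only AARS1 and CARS1 were called, and the median was -0.02.

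Serine synthesis and amino acid transport had 4 of 19 tested genes higher and 2 lower. CTH, the last enzyme of transsulfuration, had 8.39 and 8.07 at 24 h, against 7.34 and 6.62 at 6 h (difference 1.25, SE 0.28, adjusted p = 0.0131), with the 6 h mean under 7.31. ASNS, the asparagine synthetase, had 11.71 and 11.31 at 24 h, against 10.79 and 10.19 at 6 h (difference 1.02, SE 0.29, adjusted p = 0.0300). In both genes the arrays of each time lay well apart, 6 h replicate 2 being the lowest of the 4. PHGDH (0.62), the entry enzyme of serine synthesis, and the transporter SLC1A4 (0.38, called on 2 of 4 kept probe sets) were higher, and the transporters SLC38A6 (-0.68) and SLC7A6 (-0.65) were lower. The mitochondrial folate enzymes MTHFD2 (1.05) and SHMT2 (0.53, called on 2 of 3 kept probe sets) were the 2 genes called higher in one-carbon metabolism. None of the 4 increases of the transport list was called without HGF 6 h replicate 2, and 1, 3 and 3 were called without HGF 24 h replicate 1, HGF 24 h replicate 2 and HGF 6 h replicate 1.

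ATF4 binds as a dimer with C/EBP proteins to a composite element, searched here as TGATGNAAN (N for any base) on both strands in the 250 bases before each RefSeq start, a gene counting where any of its starts had a match. Its first 3 letters are shared with the AP-1 site TGANTCA. The element was present in 2.30% of the 5339 tested genes with a promoter and in 3.13% of all 35116 windows. It was present in 3.19% of the genes called higher and 2.21% of those called lower, in 4 of 14 stress response regulators (28.6%), in 3 of 14 aminoacyl-tRNA synthetases and in 4 of 17 genes of serine synthesis and amino acid transport. The windows of 5 of the higher genes are printed from RefSeq (GRCh38.p14), 5′ to 3′ along the gene with the match in capitals, to show the element in both orientations.
AARS1 (chr16:70289666-70289714, minus strand): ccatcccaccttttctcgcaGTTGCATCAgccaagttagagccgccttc
ASNS (chr7:97872448-97872496, minus strand): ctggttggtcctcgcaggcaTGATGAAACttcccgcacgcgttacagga
ATF3 (chr1:212565196-212565244, plus strand): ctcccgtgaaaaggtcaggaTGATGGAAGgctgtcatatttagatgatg
CHAC1 (chr15:40953241-40953289, plus strand): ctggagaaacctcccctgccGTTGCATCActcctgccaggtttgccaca
HERPUD1 (chr16:56931945-56931993, plus strand): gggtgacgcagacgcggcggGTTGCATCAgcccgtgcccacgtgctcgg
The match began 188 bases before the start in AARS1, 68 in ASNS, 191 in ATF3, 210 in CHAC1 and 177 in HERPUD1. AARS1, CHAC1 and HERPUD1 carried it as GTTGCATCA, the strand opposite to the searched letters. CHAC1, a glutathione-degrading enzyme named here for its promoter, had 7.95 and 8.45 at 24 h, against 7.30 and 6.97 at 6 h (difference 1.07, SE 0.25, adjusted p = 0.0153), with the 6 h mean under 7.31. GARS1 (0.64), also called higher, carried the element too, its match beginning 34 bases before the start. The element was also found before CEBPG (0.48), GOT1 (0.45), SLC1A5 (0.28), IARS1 (0.09) and SLC1A3 (-0.05), which were not called, so its presence did not go with a call in every gene.

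Of the 21 called genes named for the stress response, tRNA charging and amino acid supply, NUPR1, ATF4, HERPUD1, AARS1, CARS1 and MTHFD2 were called whichever array was left out. The call was lost for 8 of them without replicate 1 of 24 h, 5 without replicate 2 of 24 h, 6 without replicate 1 of 6 h and 14 without replicate 2 of 6 h, with adjusted p of at most 0.310.

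In the endoplasmic reticulum arm of protein folding few genes were called. Of 25 tested chaperone and unfolded protein response genes 1 was higher, HERPUD1, and 2 lower, SDF2L1 (-0.59) and EDEM1 (-0.57), with a median of 0.02. Cytosolic and mitochondrial heat shock proteins were lower in 6 of 20 and higher in 0. HSPH1, a nucleotide exchange factor of HSP70, had 8.71 and 8.83 at 24 h, against 10.05 and 9.99 at 6 h (difference -1.25, SE 0.23, adjusted p = 0.00574). The co-chaperones DNAJA1 (-1.18), DNAJB1 (-0.73) and CHORDC1 (-0.86) and the mitochondrial co-chaperonin HSPE1 (-1.03) were lower too. The chaperonin that folds actin and tubulin had CCT6A (-0.76), CCT2 (-0.76) and CCT5 (-0.49) lower, and its helper prefoldin PFDN2 (-0.51) and PFDN4 (-0.50, called on 1 of 2 kept probe sets), in all 5 of 12 tested genes and 0 higher. Proteasome subunits were lower in 10 of 38 and higher in 0 (1 after median centring), with PSMD12 (-1.26), ADRM1 (-0.87), PSMC6 (-0.80), PSME3 (-0.79) and PSMA3 (-0.76) the largest. Without HGF 24 h replicate 1 or HGF 6 h replicate 2 only 1 proteasome gene was called, and without HGF 6 h replicate 2 also 1 heat shock gene and 0 chaperonin genes. HSPH1, PSMD12 and HERPUD1 were the only 3 of these 18 named genes called whichever array was left out.

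Among genes of lipid synthesis, calls were decreases. Of 20 tested genes of cholesterol synthesis 8 were lower and 0 higher, with a median of -0.33. HMGCS1, the enzyme before the rate-limiting reductase, had 7.85 and 7.85 at 24 h, against 8.91 and 8.51 at 6 h (difference -0.86, SE 0.20, adjusted p = 0.0154). NSDHL had 8.25 and 8.61 at 24 h, against 9.33 and 9.22 at 6 h (difference -0.85, SE 0.15, adjusted p = 0.00500). The enzymes MSMO1 (-0.79) and SC5D (-0.75) and the sterol sensor INSIG2 (-0.80) were also lower. In fatty acid synthesis the elongase ELOVL6 (-1.06) and the synthase FASN (-0.71) were lower among 10 tested genes, whose median was 0.03. Leaving out each array in turn left 4 cholesterol genes called each time.

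Sphingolipid enzymes were lower in 6 of 13 and higher in 1. SPHK1, which makes sphingosine 1-phosphate, had 8.46 and 8.34 at 24 h, against 9.69 and 9.72 at 6 h (difference -1.31, SE 0.13, adjusted p = 0.000961). B4GALT6 (-1.20), UGCG (-0.92) and ST3GAL5 (-0.52), which all act in making ganglioside precursors from ceramide, and the ceramide desaturase DEGS1 (-0.93) were lower. The sphingomyelinase SMPD1 (0.55, called on 1 of 2 kept probe sets), a lysosomal enzyme, was higher. Without HGF 24 h replicate 1 or HGF 6 h replicate 2 the list had 2 decreases.

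Glycolytic and hypoxia-induced genes were called in both directions, 4 of 29 lower (13.8%) and 3 higher (10.3%), near the shares over all genes. The vasoactive peptide ADM (-1.24), the glucose transporter SLC2A1 (-0.94), the bifunctional kinase PFKFB3 (-0.69) and hexokinase HK2 (-0.47) were lower, and MXI1, KDM3A (0.54) and PFKM (0.53) were higher. Respiratory chain subunits were called in 3 of 54 genes, 1 higher and 2 lower, both shares being under those of all genes, and their differences ran between -0.44 and 0.45. Metallothioneins and NRF2 targets had 7 of 29 genes lower and 1 higher. MT1X had 8.68 and 8.80 at 24 h, against 9.69 and 9.79 at 6 h (difference -0.997, SE 0.14, adjusted p = 0.00176), and MT2A (-0.88), MT1H (-0.58), the glutathione synthesis subunit GCLM (-0.93) and TXNRD1 (-0.76) were lower with it. Metallothionein genes are nearly identical in sequence, so their probe sets may share signal. NSDHL, MSMO1, SPHK1, ELOVL6, SLC2A1, MT1X and MT2A were called whichever array was left out, and of the 25 genes named for lipids, sugar and metals 12, 7, 13 and 13 lost the call without HGF 24 h replicate 1, HGF 24 h replicate 2, HGF 6 h replicate 1 and HGF 6 h replicate 2, with adjusted p of at most 0.264.

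Genes linked to FOXO factors and growth arrest were mostly higher at 24 h. FOXO factors enter the nucleus when PI3K-AKT signalling is low and favour quiescence. Of 19 tested genes 11 (57.9%) were higher and 1 lower, with a median of 0.55. YPEL5 had 10.13 and 9.87 at 24 h, against 8.72 and 8.32 at 6 h (difference 1.48, SE 0.15, adjusted p = 0.000961). PNRC1, a nuclear receptor coactivator, had 8.37 and 8.93 at 24 h, against 7.26 and 7.57 at 6 h (difference 1.23, SE 0.20, adjusted p = 0.00282). TXNIP, which restrains glucose uptake, had 11.23 and 10.70 at 24 h, against 10.04 and 9.88 at 6 h (difference 1.00, SE 0.20, adjusted p = 0.00727). TSC22D3 (1.23), better known as GILZ, and the atypical cyclin CCNG2 (0.85) were also higher, and GAS1 (-0.72) was lower. In 6 of the 19 tested genes the lower group's mean was under 7.31. The list had 6, 6, 7 and 3 increases without HGF 24 h replicate 1, HGF 24 h replicate 2, HGF 6 h replicate 1 and HGF 6 h replicate 2.

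Of 22 tested autophagy genes 7 were higher (31.8%) and 1 lower, against 7.43% higher over all genes. NBR1, a cargo receptor, had 9.38 and 9.15 at 24 h, against 8.14 and 8.12 at 6 h (difference 1.13, SE 0.14, adjusted p = 0.00136). WIPI2 (0.69), the ATG8 proteins GABARAPL1 (0.59) and GABARAP (0.47), and ATG14 (0.45) were higher, while the cargo receptor SQSTM1 (-0.47, called on 1 of 2 kept probe sets) was lower. Of 44 lysosomal genes 5 were higher (11.4%) and 1 lower, with a median of 0.08. The higher genes were the sulfamidase SGSH (0.71), the cathepsin CTSF (0.68), SMPD1, and the membrane proteins SCARB2 (0.45, called on 1 of 2 kept probe sets) and LAMP2 (0.38, called on 1 of 3 kept probe sets), and the lower one the proton pump subunit ATP6V1C1 (-0.65). In the mTOR list 3 of 22 were higher and 0 lower, namely DEPTOR with 8.71 and 8.88 at 24 h, against 7.53 and 7.45 at 6 h (difference 1.31, SE 0.15, adjusted p = 0.00109), DDIT4, and the kinase ULK1 (0.43), which starts autophagy. Without HGF 6 h replicate 1 or HGF 6 h replicate 2 only 1 autophagy gene was called. YPEL5, PNRC1, NBR1, SGSH and DEPTOR were called whichever array was left out, and of the 21 named here 11, 8, 11 and 15 lost the call without HGF 24 h replicate 1, HGF 24 h replicate 2, HGF 6 h replicate 1 and HGF 6 h replicate 2, with adjusted p of at most 0.288.

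Cell cycle genes were called almost only at the entry into S phase. Of 21 tested G1 cyclins, partners and CDK inhibitors 6 were lower and 2 higher. CCND1, the cyclin that mitogens induce, had 6.39 and 6.26 at 24 h, against 8.55 and 8.24 at 6 h (difference -2.07, SE 0.37, adjusted p = 0.00500), and both of its kept probe sets were called lower. TFDP1, the partner of E2F factors, had 9.55 and 10.13 at 24 h, against 10.80 and 11.06 at 6 h (difference -1.09, SE 0.21, adjusted p = 0.00661). CDC25A, the phosphatase that activates CDK2, had 8.01 and 8.45 at 24 h, against 9.30 and 9.17 at 6 h (difference -1.01, SE 0.19, adjusted p = 0.00553). CCNE2 (-1.09) and the ubiquitin ligase subunit SKP2 (-1.08) were lower, and TFDP2 (0.79) and the pocket protein RBL2 (0.60) were higher, so the 2 E2F partners TFDP1 and TFDP2 were called in opposite directions.

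Few genes of later phases were called, which does not show that the others stayed level. Of 54 tested replication and S phase genes 1 was lower, MCM10 (-1.24), and 0 higher. Of 63 G2 and M phase genes 1 was higher, the phosphatase CDC25C (0.84), and 0 lower. The medians of the 2 lists were -0.10 and -0.10. Differences ran between -1.24 and 0.79 in the S phase list and between -0.82 and 0.84 in the G2 and M phase list. The 2 replicates at 24 h differed here, since without HGF 24 h replicate 1 the medians were 0.16 for S phase and 0.09 for G2 and M phase, and without HGF 24 h replicate 2 a total of 4 genes was called lower in each list. p53 targets were called equally in both directions, 4 of 14 higher (28.6%) and 4 lower (28.6%), against 7.43% and 12.4% over all genes. The higher ones were XPC (0.62), DDB2 (0.61), GADD45A (0.56) and CCNG1 (0.50). The lower ones were AEN (-0.79), TIGAR (-0.66), the CDK inhibitor CDKN1A (-0.60) and TRIAP1 (-0.56). In the BCL2 family the survival gene BCL2A1 had 7.32 and 7.38 at 24 h, against 8.54 and 8.64 at 6 h (difference -1.24, SE 0.11, adjusted p = 0.000642), and BNIP1 (0.45, called on 1 of 2 kept probe sets) was higher. Of these 19 genes CCND1, SKP2, CDC25A, TFDP2, AEN and BCL2A1 were called whichever array was left out, and 10, 6, 11 and 11 lost the call without HGF 24 h replicate 1, HGF 24 h replicate 2, HGF 6 h replicate 1 and HGF 6 h replicate 2, with adjusted p of at most 0.248.

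Genes of motility and invasion, the responses for which HGF is named scatter factor, were called in shares that differed between lists. Of 55 tested actin and focal adhesion genes 7 (12.7%) were lower and 1 higher, close to the 12.4% lower over all genes. RHOB had 8.81 and 8.82 at 24 h, against 9.56 and 9.71 at 6 h (difference -0.82, SE 0.19, adjusted p = 0.0149). The focal adhesion proteins ZYX (-0.61) and ACTN1 (-0.49, called on 1 of 3 kept probe sets), the GTPase CDC42 (-0.49) and the capping protein CAPZA1 (-0.47) were lower. CTTN, the cortactin gene, was the only gene of which 2 kept probe sets were called in opposite directions, at 0.68 and -0.51, with another at 0.28 and not called, so its direction is uncertain. It is the 1 gene of the list counted as higher, through its probe set with the highest mean. Of 19 matrix proteases and urokinase genes 3 were lower (15.8%) and 1 higher (5.26%), near the shares over all genes. MMP2, a gelatinase, had 8.87 and 9.37 at 24 h, against 9.88 and 9.93 at 6 h (difference -0.78, SE 0.16, adjusted p = 0.00757). The urokinase receptor PLAUR (-0.41) was lower and the tissue plasminogen activator PLAT (0.46) higher. Integrins, laminins and collagens had ITGB3 (-0.80) lower and LAMC1 (0.46, called on 1 of 2 kept probe sets) higher among 19. Without one or other of the HGF 6 h replicates ITGB3 no longer passed the filter. It was thus kept only through the group in which it was high.

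Regulators of the epithelial-mesenchymal transition went both ways, with 3 of 14 higher and 3 lower. SNAI2, a repressor of epithelial genes that is also active in melanocytes, had 10.92 and 10.95 at 24 h, against 10.00 and 10.28 at 6 h (difference 0.79, SE 0.18, adjusted p = 0.0127). TGFBI (0.53) and the alpha catenin CTNNA1 (0.47) were higher, and MMP2, the epithelial splicing factor ESRP1 (-0.62) and the keratin KRT18 (-0.52) were lower. Of the 19 called genes named for lineage, adhesion and invasion SERPINB8 and ERBB3 were called whichever array was left out, and 12, 9, 15 and 14 lost the call without HGF 24 h replicate 1, HGF 24 h replicate 2, HGF 6 h replicate 1 and HGF 6 h replicate 2, with adjusted p of at most 0.284.

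Chromatin architecture genes had 5 of 38 lower (13.2%) and 2 higher (5.26%), near the 12.4% and 7.43% over all genes. HMGA2, an architectural protein of growing cells, had 6.56 and 6.25 at 24 h, against 7.71 and 7.76 at 6 h (difference -1.33, SE 0.26, adjusted p = 0.00704), with the 24 h mean under 7.31. Without one or other of the HGF 6 h replicates HMGA2 no longer passed the filter. It was thus kept only through the group in which it was high. SATB1 stood at the other end with 7.96 and 7.74 at 24 h, against 6.53 and 6.28 at 6 h (difference 1.45, SE 0.14, adjusted p = 0.000913). The remodeler subunit BAZ1A (-1.22), the cohesin subunit STAG1 (-1.12), HMGN3 (-0.65) and the insulator protein CTCF (-0.44) were lower, and the methyltransferase KMT2A (0.60, called on 2 of 3 kept probe sets) was higher. Of 32 interferon-induced genes 3 were higher (9.38%, also near that share), GBP2 (0.82), IFITM3 (0.65) and IFITM2 (0.52), and the IFITM genes are close paralogs. Of 14 tested semaphorin, plexin and neuropilin genes 2 were higher, the plexins PLXNB2 (0.69) and PLXNB1 (0.49), and 0 lower. Of 10 circadian clock genes 2 were higher, DBP and the clock repressor CRY2 (0.58), and 0 lower. Of 15 TGF-beta and SMAD pathway genes 2 were higher, TGFBI and the pseudoreceptor BAMBI (0.62), and 0 lower. The medians of these lists were 0.15, 0.20 and -0.02 in that order, and each count of increases rests on 2 genes. SATB1 was the only 1 of these 16 genes called whichever array was left out, and the lost calls numbered 6, 6, 9 and 14 without HGF 24 h replicate 1, HGF 24 h replicate 2, HGF 6 h replicate 1 and HGF 6 h replicate 2, with adjusted p of at most 0.288.

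The untreated and HGF 1 h arrays, which took no part in the difference, showed on which side of it the other conditions lay. Each gene's position was measured on the line between its 6 h mean at 0 and its 24 h mean at 1. The mean of untreated cells was nearer to the 24 h mean in 361 of the 473 genes called higher (76.3%) and in 562 of the 787 called lower (71.4%), with median positions of 0.68 and 0.67. For HGF 1 h the shares were 84.4% and 75.3%, and for the ITGB4 cells 62.6% and 67.2%. ATF4 had group means of 12.04 in untreated cells, 12.18 at 1 h, 10.90 at 6 h and 12.13 at 24 h, so 6 h was the time that stood apart. SFPQ had 8.82, 8.50, 10.07 and 7.64 in the same order, the 24 h level lying below the untreated one as the 6 h level lay above it. AARS1 was the mirror image with 10.51, 10.50, 9.65 and 11.30. These positions are given without a test, since both ends of the line chose the genes.

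**Figure D4:**
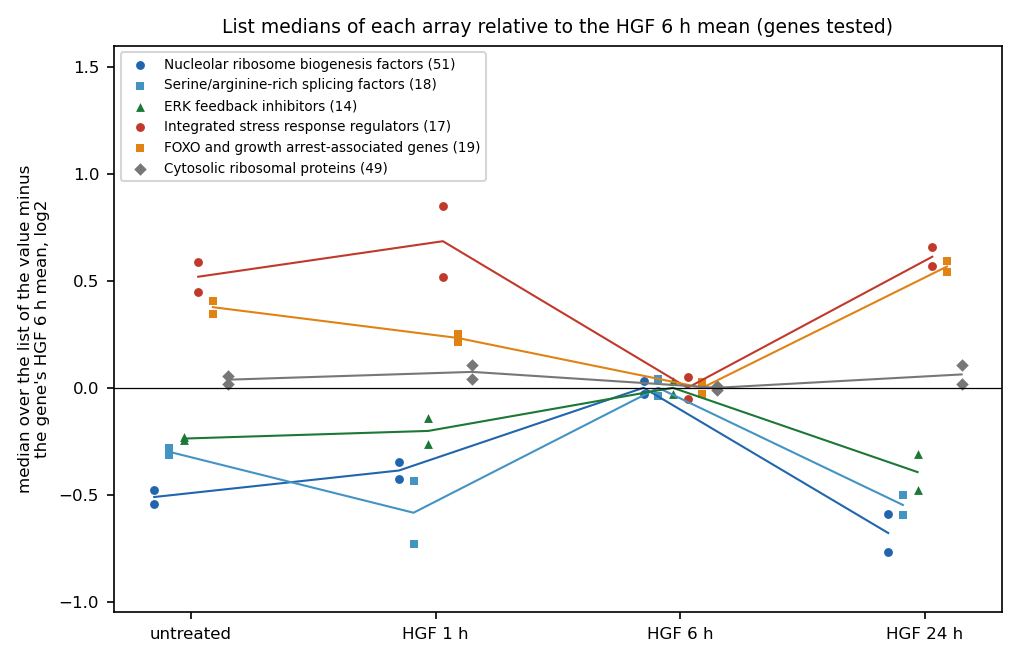
Median over each list of the array's log2 value minus the gene's HGF 6 h mean (y axis), 1 point per array, for untreated cells and cells after 1, 6 and 24 h with HGF (x axis), with lines through the group means. Nucleolar factors were at -0.77 and -0.59 at 24 h and at -0.54 and -0.48 in untreated cells, stress response regulators at 0.57 and 0.66 at 24 h and at 0.45 and 0.59 in untreated cells, and cytosolic ribosomal proteins stayed between -0.01 and 0.11 on all 8 arrays.

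The called genes were also set against features that the arrays do not measure, as a description with no test. In 5 equal bins of genes by genomic span, the longest (median 139 kb) had 9.11% higher and 8.79% lower, against 4.87% higher and 13.0% lower in the shortest (median 5.30 kb). Between these, the shares were 12.6 to 14.4% lower and 6.75 to 9.11% higher. By CG dinucleotides in the 250 bases before the start, the richest of 5 bins (median 34) had 6.27% higher and 15.4% lower, against 9.46% and 8.99% in the poorest (median 8). The share of genes with an E-box CACGTG, bound by MYC-MAX and related factors, was 10.0% of the genes called higher and 13.3% of those called lower, against 12.5% of the tested genes and 6.34% of all windows. An AP-1 site TGANTCA was found in 5.64% of the higher and 6.63% of the lower genes, against 5.97% of the tested genes and 6.57% of all windows, which is close to the background. The CCAAT box was found in 48.8% of the higher and 41.2% of the lower genes, against 43.9% of the tested genes and 32.0% of all windows. Span, CG content and list membership are not independent of each other, and their separate parts were not tested.

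**Figure D5:**
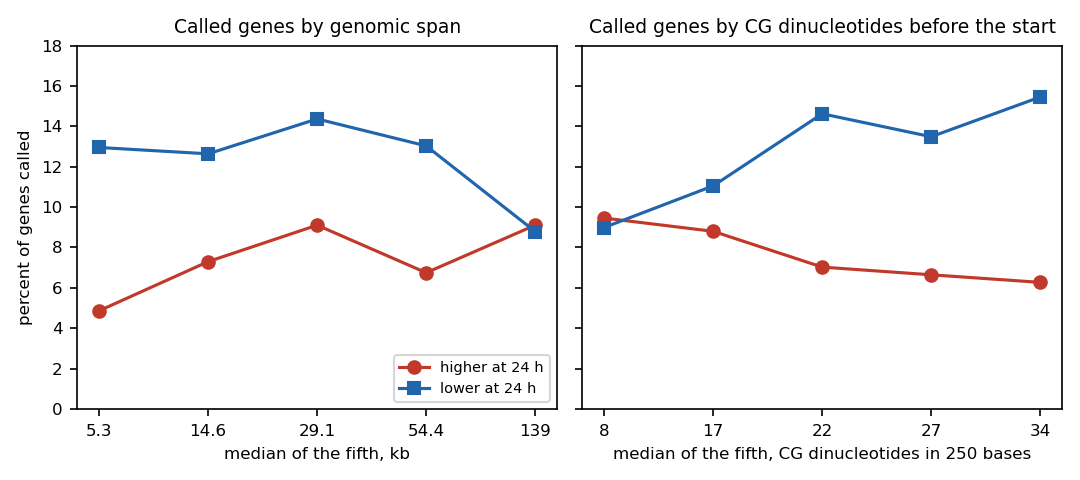
Percent of genes called higher (red circles) or lower (blue squares) at 24 h against 6 h in 5 equal bins of genomic span in kb (left) and of CG dinucleotides in the 250 bases before the start (right), each bin at its median. The lower share drops to 8.79% in the bin of longest genes and climbs to 15.4% in the bin richest in CG.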

How the data were processed

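RNA of MDA-MB-435 cells was hybridised to Affymetrix hgu133a arrays. The authors summarised and normalised the probe data with RMA (affy package), so the deposited values are log2 levels already set on one scale across arrays. As a filter on low values, probe sets other than the 68 controls were ranked by the second-highest of their 10 values and the top 10137 were kept, the number that the study kept with presence calls. The lowest second-highest value among them was 7.31.

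A linear model with a mean for each of 5 groups was fitted in R 4.3.3 with limma 3.58.1, with 5 residual degrees of freedom and moderated variances. The contrast was the HGF 24 h mean minus the HGF 6 h mean, with Benjamini-Hochberg adjustment of its p-values over all that were kept. The program was tested on simulated data. Adjusted p-values in the text are limma's, and each difference has 2 arrays in each group.

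Symbols came from the platform annotation, in which 19065 probe sets had a single symbol, 1043 several and 2107 none, and only the first kind was named. Promoters of 5339 of the 6370 genes and genomic spans came from RefSeq (GRCh38.p14). The comparison, the gene lists and the tests were chosen with earlier results of these data known, so list counts are descriptions and no list was tested as a set.

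Genes were named by a rule: the 15 called genes that increased most and the 15 that decreased most, without overlap between the times, at most 5 called members in each direction of each list described (the 2 largest differences where none was called), HGF and MET, lineage markers, and genes with probe sets called in opposite directions. CHAC1, CEBPG, IARS1, GOT1, SLC1A3 and SLC1A5 were named for their promoters after their values were seen. The alternatives were other filters, normalisations, estimates of the spread and thresholds, the replicate number as a block, the mean of a gene's probe sets, and leaving out each array of the contrast. Precision is limited by the number of arrays, 2 at each time.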

Additional observations from a re-analysis of the deposited data

How the results depend on the processing

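Of the 1981 called probe sets and 1260 called genes, 1182 and 832 were called with a stricter filter of 5000 probe sets, 304 and 184 when a difference of at least 1 was also required, and 3457 and 2177 at an unadjusted p under 0.05. Without each array of the contrast in turn the counts ran from 454 to 1380 probe sets and from 288 to 877 genes, the fewest without HGF 6 h replicate 2. The lone remaining array of a time was then assumed to vary like the other groups. The share of called probe sets that were higher, 35.6%, was 33.2% with no filter, 47.1% after median centring, 39.8% after cyclic loess, 18.1% with a difference of at least 1 and 40.8% at an unadjusted p under 0.05, and ran from 24.3% to 39.3% without each array. Under the other settings these counts stayed within 1.5 times the values given and the share within its 95% Wilson interval. With the replicate number as a block 2304 probe sets and 1462 genes were called, 37.5% of the probe sets higher, and none of the calls of the named genes was lost. The deviations of same-numbered arrays at 24 h and 6 h correlated at 0.46 over probe sets, but with 2 pairs and no label on what a number shares, the numbers were not taken to pair the arrays.

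Of 221 named genes, 93 lost the call without replicate 1 of 24 h and 61 without replicate 2 of 24 h, and 102 of 217 without replicate 1 of 6 h and 128 of 218 without replicate 2 of 6 h, the rest of the 221 no longer passing the filter. None turned its direction in these or the other alternatives. Other settings took the call from at most 21 named genes, which was when the spread was estimated without the untreated arrays, and RPL3 and RPL12 gained one with a trended and robust prior. Some list medians near 0 turned sign: without HGF 24 h replicate 1 the median was 0.16 for S phase genes and 0.09 for G2 and M phase genes, and without HGF 6 h replicate 2 it was -0.02 for the aminoacyl-tRNA synthetases. Low signal limits genes under 7.31, and the mean of the lower group lay under 7.31 in 210 called genes. The causes of these shifts were not tested.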

Other observations

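Of the 190 called probe sets that carry several symbols or none, none is named here. Of the 426 called genes with several kept probe sets, 251 had all of them called in the same direction, and CTTN was the only gene with calls in opposite directions.

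The pair of differences formed by subtracting 6 h replicate 1 from 24 h replicate 1 and 6 h replicate 2 from 24 h replicate 2 shared no array. Across the 6370 genes, which are not independent replicates, these 2 differences had the same sign in 5045 (79.2%).

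The CCAAT box stood before 42 of 53 G2 and M phase genes (79.2%) and 14 of 18 cholesterol synthesis genes (77.8%), against 43.9% of the tested genes. At 24 h against 6 h, 1 of 63 tested genes of the first list was called and 8 of 20 of the second. The difference between these lists was not tested.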
